A study of Mus musculus with 2 samples.

Results

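The genes described here are the Lin28, Igf2bp and Hmga genes of the mouse: Lin28a, Lin28b, Igf2bp1, Igf2bp2, Igf2bp3, Hmga1 and Hmga2. They were chosen by a rule on symbols that used no measured value, though earlier results of these data were known. They make 7 of the 55536 gene entries quantified. Limbs of B6NCrl embryos were taken at day 12.5 of development and pooled over males and females. The labels name no allele, treatment or sorted cell type. The series holds 1 group of 2 libraries: replicate 1 came from a pool of 88 embryos and replicate 2 from a pool of 68. Oligo-dT priming started from 10 ng of RNA in either case, with ERCC spike-in RNA added. No other age, tissue or treatment was analysed here, so levels are described and no condition is compared. Expected counts over genes summed to 29633457 reads in replicate 1 and 30118921 in replicate 2.

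These genes are called oncofetal because they are active in embryos, largely silent in adult tissue and active again in many tumours. LIN28A and LIN28B bind the precursors of the let-7 microRNAs and block their maturation. let-7 in turn lowers many mRNAs of growth, among them those of the Lin28, Igf2bp and Hmga genes, so the families form a circuit of fetal timing. The IGF2BP proteins bind mRNAs and protect or localise them, and the HMGA proteins are small chromatin proteins that bind the minor groove of AT-rich DNA through AT-hooks. In bulk tissue, a gene active in few cells and a gene weakly active in many cannot be told apart.

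The let-7 family links the genes by sequence, so its mature RNAs are shown first, from RefSeq (GRCm38.p6). Capitals mark the seed, bases 2 to 8, which pairs with the target. Of 11 family names in the table, 10 share the seed GAGGUAG, and let-7j is the exception.
let-7a: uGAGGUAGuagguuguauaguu
let-7e: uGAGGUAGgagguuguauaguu
let-7g: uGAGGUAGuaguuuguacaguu
miR-98: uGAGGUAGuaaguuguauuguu
let-7j: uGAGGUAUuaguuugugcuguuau
The 4 RNAs with the shared seed differ from each other only after it. The let-7a entry shown lies at chr13:48538239-48538260 on the minus strand, let-7e at chr17:17830366-17830387 on the plus strand and let-7g at chr9:106178846-106178867 on the plus strand. The miR-98 entry lies at chrX:151913229-151913250 and the let-7j entry at chr3:140028281-140028304, both on the plus strand.

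LIN28 proteins are known to hold let-7 precursors at a GGAG in or near the terminal loop. The bases between the mature arms are shown for 5 hairpins, with GGAG in capitals, because they are the RNA that LIN28 reads.
let-7a-1: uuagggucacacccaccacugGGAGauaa
let-7c-1: uagaguuacacccugGGAGuuaa
let-7e: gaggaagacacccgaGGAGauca
let-7f-2: uuagggucauaccccaucuuGGAGauaa
let-7c-2: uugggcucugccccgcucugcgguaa
The letters GGAG, searched on the RNA strand alone, stood between the arms in 8 of the 11 family hairpins for which both arms are listed. The let-7b, let-7c-2 and miR-98 hairpins were without it there. Over whole hairpins, 9 of the 12 family hairpins searched held GGAG, against 44.5% of all 1005 mouse hairpins in the table. The hairpins of let-7j and let-7k were not among those searched.

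All 7 genes held the letters CTACCTC, which pair with the let-7 seed, in the 3' UTR of their most abundant coding transcript. Over 20910 protein-coding genes, the longest annotated 3' UTR held these letters in 8.98%. The match was searched on the mRNA strand alone and is a description, not evidence of a working site. The genes belong to the let-7 circuit described above, so the share with a match is partly set by their choice. All 4 matches of Hmga2, the gene with the most matches per length, are printed with 1 match of each other gene, from the GENCODE M21 transcripts on mm10, with the match in capitals.
Hmga2, match 1 of 4: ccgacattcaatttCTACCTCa
Hmga2, match 2 of 4: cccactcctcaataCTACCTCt
Hmga2, match 3 of 4: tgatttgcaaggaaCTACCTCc
Hmga2, match 4 of 4: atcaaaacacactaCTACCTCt
Lin28a, first match: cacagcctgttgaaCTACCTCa
Lin28b, first match: cccgggcgggaagtCTACCTCa
Igf2bp1, first match: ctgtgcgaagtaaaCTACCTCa
Igf2bp2, single match: cacacaaataaaagCTACCTCa
Igf2bp3, single match: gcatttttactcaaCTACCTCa
Hmga1, single match: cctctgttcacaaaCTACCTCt
An A after the match, opposite the first base of let-7, is known to favour repression. It followed 9 of the 17 matches, spread over 6 genes, and the single Hmga1 match lacked it.

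The matches lay in different places along the 3' UTRs. The first Hmga2 window lies at chr10:120364224-120364245 on the minus strand, with its match at nt 21 of a 3' UTR of 2977 nt, and the others begin at nt 1258, 1696 and 2554. Lin28b had 4 matches in 4445 nt, at nt 36, 2410, 2582 and 3998, and the printed window lies at chr10:45381022-45381043 on the minus strand. In Hmga2 and Lin28b the first match thus lay close behind the stop codon. Igf2bp1 had 4 matches in the longest 3' UTR of the group, 6337 nt, the first at nt 1715, and the printed window lies at chr11:95961778-95961799 on the minus strand. Lin28a had 2 matches in 2775 nt, the printed one at chr4:134005189-134005210 on the minus strand. The remaining genes had 1 match each: Igf2bp2 in 1784 nt, at chr16:22059473-22059494 on the minus strand, Igf2bp3 in 2119 nt, at chr6:49086787-49086808 on the minus strand, and Hmga1 in 1183 nt, at chr17:27563278-27563299 on the plus strand.

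**Figure D1:**
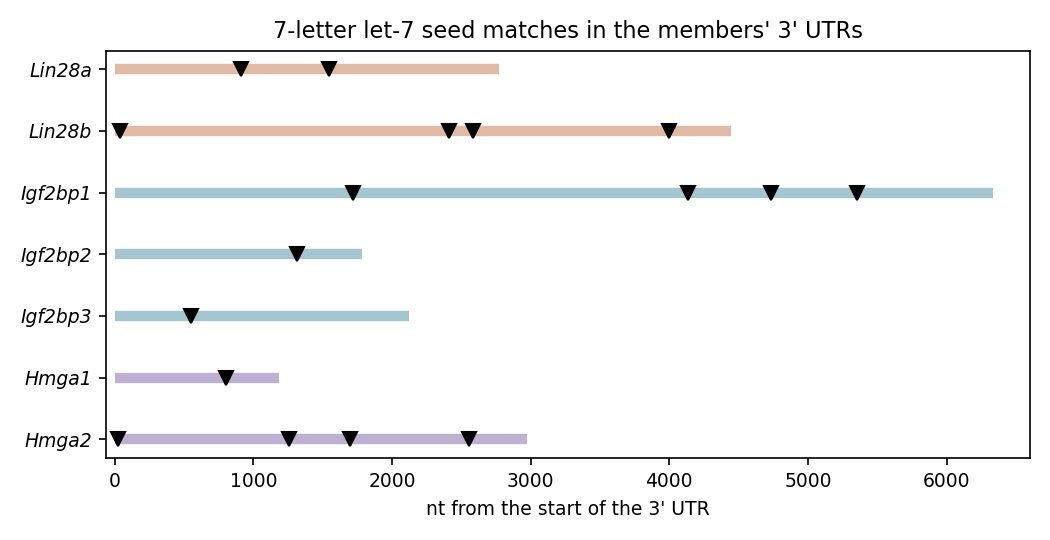
Each bar is the 3' UTR of a gene's most abundant coding transcript, drawn to scale in nt from its start, and each triangle is a CTACCTC match. Hmga2, Igf2bp1 and Lin28b carry 4 matches each, Lin28a 2 and the other genes 1.

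Matches per length ran from 0.472 per kb in Igf2bp3 to 1.34 per kb in Hmga2. Over the 7 genes together the density was 0.786 per kb, against 0.0699 per kb over all 3' UTRs. That contrast is partly set by the choice of genes of the let-7 circuit. Among 3' UTRs within 20% of the same length, the share that held a match was 33.7% for Igf2bp1, 23.9% for Lin28b, 15.2% for Hmga2, 14.5% for Lin28a, 13.3% for Igf2bp3, 12.03% for Igf2bp2 and 7.97% for Hmga1. Only 12 of all genes had 4 or more matches. They include Trim71 and Hic2, known let-7 targets, and Nr6a1 with 8. Of those 12 genes, Hmga2 (mean 102.7 TPM) and Igf2bp1 (mean 91.7 TPM) were the most abundant in these limbs, ahead of Hic2 and Mcf2l with 10.8 TPM each. TPM is the authors' measure of transcript abundance, scaled for length and depth.

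Lin28b was detected at a moderate level and Lin28a hardly at all. LIN28A acts mainly in the cytoplasm of early embryonic and stem cells, and LIN28B is its paralogue, which also holds let-7 precursors in the nucleus. Lin28a (ENSMUSG00000050966.9, chr4:134003330-134018841, minus strand) had 22 reads or 0.33 TPM in replicate 1 and 28 reads or 0.41 TPM in replicate 2. The exact 95% Poisson intervals were 0.207 to 0.4996 TPM and 0.272 to 0.593 TPM, and they cover counting error only. Both libraries were therefore below 1 TPM, and 64.8% of protein-coding genes had a higher mean level. Lin28b (ENSMUSG00000063804.8, chr10:45376620-45486395, minus strand) had 8.07 TPM in replicate 1 and 11.34 TPM in replicate 2, a mean of 9.71 ± 2.31 TPM (SD, n = 2). Replicate 2 was the higher. Quantified with the older GENCODE M4 annotation, in which Lin28b-201 is its single transcript, Lin28b had 5.41 and 6.66 TPM. Lin28b was 24.5-fold above Lin28a in replicate 1 and 27.7-fold in replicate 2, a mean log2 ratio of 4.70. That ratio was 3.96 with M4 and 3.89 with protein-coding transcripts alone.

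The 3 Igf2bp genes were abundant and lay close together. IGF2BP1 and IGF2BP3 are fetal proteins that stabilise growth mRNAs, and IGF2BP2 is the member that stays on in many adult tissues. Igf2bp1 (ENSMUSG00000013415.9, chr11:95957163-96005940, minus strand) had 85.89 TPM in replicate 1 and 97.59 TPM in replicate 2, a mean of 91.7 ± 8.27 TPM (SD, n = 2). Igf2bp2 (ENSMUSG00000033581.17, chr16:22059009-22163299, minus strand) had 122.87 and 114.70 TPM, a mean of 118.8 ± 5.78 TPM. Igf2bp3 (ENSMUSG00000029814.10, chr6:49085223-49214957, minus strand) had 88.95 and 97.10 TPM, a mean of 93.0 ± 5.76 TPM. Summed over all transcripts, Igf2bp2 was the highest in both libraries, while Igf2bp1 and Igf2bp3 changed places between them. Over protein-coding transcripts alone Igf2bp2 was the lowest in both, with 57.40 and 62.44 TPM. Together the family summed to 297.7 TPM in replicate 1 and 309.4 TPM in replicate 2.

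Both Hmga genes were abundant, with Hmga1 the highest of all 7 genes. HMGA1 and HMGA2 are the AT-hook proteins, and HMGA2 is the one most tied to embryonic growth and body size. Hmga1 (ENSMUSG00000046711.16, chr17:27556497-27563674, plus strand) had 261.05 TPM in replicate 1 and 258.41 TPM in replicate 2, a mean of 259.7 ± 1.87 TPM (SD, n = 2). Only 2.47% of protein-coding genes had a higher mean. Hmga2 (ENSMUSG00000056758.14, chr10:120361275-120476469, minus strand) had 100.29 and 105.19 TPM, a mean of 102.7 ± 3.46 TPM. Hmga2 was thus 0.384 of Hmga1 in replicate 1 and 0.407 in replicate 2, with no overlap.

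**Figure D2:**
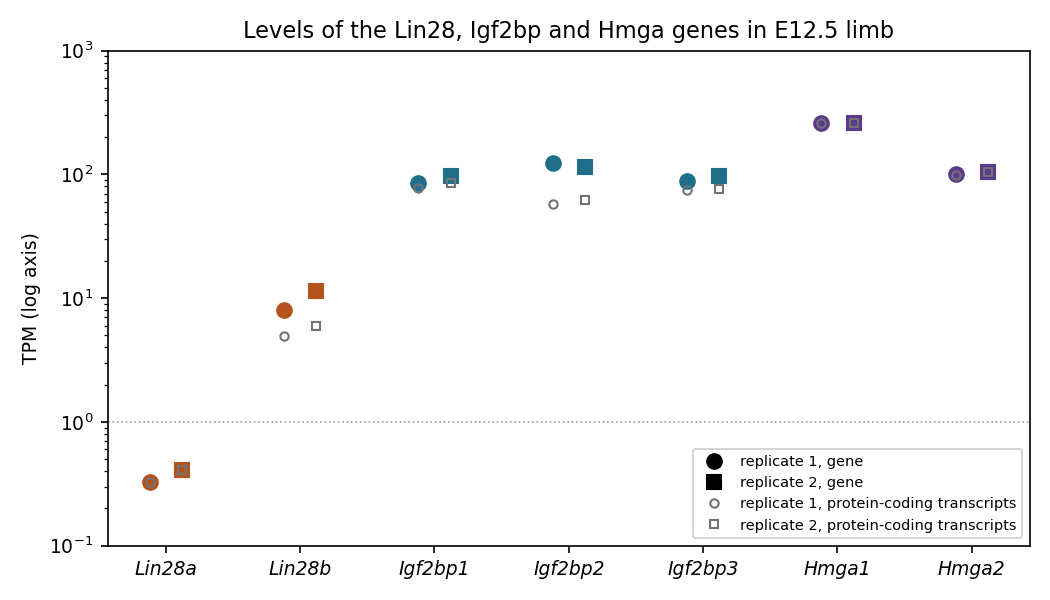
TPM on a log axis for each gene, circles for replicate 1 and squares for replicate 2; filled symbols give the gene and small open symbols its protein-coding transcripts alone. Lin28a lies below the dotted line at 1 TPM, Lin28b near 10 TPM and the other genes near or above 100 TPM, and the open symbols of Igf2bp2 lie well below its filled ones.

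In all, 6 of the 7 genes reached 1 TPM in both libraries, where 58.1% of 22028 protein-coding genes did. By mean level the order was Hmga1, Igf2bp2, Hmga2, Igf2bp3, Igf2bp1, Lin28b and Lin28a. With protein-coding transcripts alone it was Hmga1 (259.7 TPM), Hmga2 (102.3 TPM), Igf2bp1 (81.6 TPM), Igf2bp3 (75.1 TPM), Igf2bp2 (59.9 TPM), Lin28b (5.46 TPM) and Lin28a (0.37 TPM), so the place of Igf2bp2 depends on the transcripts summed. Neighbours were set beside a spread. It is the size of the log2 difference between libraries that 95% of the 500 genes closest in level to the lower of the pair stay under. Hmga1 exceeded Igf2bp2 by 1.09 and 1.17 on the log2 scale, beyond a spread of 0.21. Igf2bp1 exceeded Lin28b by 3.41 and 3.11, beyond 0.52, and Lin28b exceeded Lin28a by 4.61 and 4.79, beyond 2.07. The steps from Igf2bp2 to Hmga2 (0.29 and 0.12), from Hmga2 to Igf2bp3 (0.17 and 0.12) and from Igf2bp3 to Igf2bp1 (0.05 and -0.01) did not exceed the spread in both libraries.

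Of 6 pairs of genes compared in this way, 5 differed beyond the spread in both libraries, and an exact permutation test of 2 values against 2 could not go below p = 0.33. Hmga2 lay below Hmga1 by a mean log2 ratio of -1.34, and Igf2bp1 against Igf2bp3, at -0.02, stayed within the spread. Igf2bp2 exceeded Igf2bp3 by 0.47 and 0.24 and exceeded Igf2bp1, whose ratio to Igf2bp2 was -0.52 and -0.23. These 2 differences of Igf2bp2 turned with the transcripts that were summed. With protein-coding transcripts alone, an alternative chosen after the data were seen, Igf2bp1 to Igf2bp2 had a mean log2 ratio of 0.44. Igf2bp2 to Igf2bp3 had one of -0.33. Both went beyond the spread of 0.21 kept from the whole-gene levels, which was not computed anew for coding transcripts. It leaves out the error of assigning reads to transcripts. Over coding transcripts Igf2bp3 had 74.48 and 75.62 TPM, and Igf2bp1 77.19 and 85.92 TPM.

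The 7 genes have 48 annotated transcripts, of which 28 are coding. Transcripts with at least 10% of their gene's summed TPM numbered 11. In Igf2bp2, the full-length coding transcript Igf2bp2-201 (592 codons) held 42.5% in replicate 1 and 44.1% in replicate 2. Igf2bp2-207, annotated as a retained intron and so as noncoding, held 40.1% and 32.1%. Of its 3267 nt, 3259 lie in exons of Igf2bp2-201, so nearly all of its reads could come from either transcript. The authors' posterior SD for Igf2bp2-207 was 197.4 reads of 3078 in replicate 1 and 192.8 of 2326 in replicate 2. Entries annotated as noncoding made up 49.4% of Igf2bp2 TPM in the mean. A further coding transcript, Igf2bp2-202 with 524 codons, held 4.25% and 10.3%.

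The other Igf2bp genes were dominated by 1 coding transcript each. Igf2bp1-201 (577 codons) held 89.9% of Igf2bp1 TPM in replicate 1 and 88.0% in replicate 2, and 99.1% of its reads in the mean. Igf2bp3-201 (579 codons) held 83.7% and 77.9%, and the short noncoding Igf2bp3-203 held 7.76% and 13.4%. Short entries carried few reads here: Igf2bp3-203 had 83.4 and 158.3 reads, against 6242 and 6402 for Igf2bp3-201.

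Lin28b was split between its coding transcript and a short one. Lin28b-201 (271 codons) had 4.99 TPM in replicate 1 and 5.93 TPM in replicate 2, or 61.8% and 52.3% of the gene. Lin28b-203, a noncoding transcript of 1382 nt that begins upstream of Lin28b-201 and has no 3' UTR, had 2.35 and 4.33 TPM from 59.5 and 110.9 reads. In reads, Lin28b-201 made up 81.3% of the gene in the mean. In replicate 2 the gene was 1.41-fold above replicate 1 and the coding transcript 1.19-fold. Lin28a had all its reads on Lin28a-201 (209 codons).

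Hmga1 is known for 2 proteins made by alternative splicing, a longer and a shorter form, and both classes of transcript were abundant. Over its 17 transcripts, those coding for 107 codons held 49.7% of TPM in replicate 1 and 53.5% in replicate 2. Those coding for 96 codons, 11 fewer, held 41.2% and 38.1%. The most abundant single transcripts were Hmga1-216 of the longer class, with 43.4 ± 1.17% (SD, n = 2), and Hmga1-201 of the shorter class, with 21.7 ± 0.513%. The classes did not overlap between libraries, and the longer was ahead in both. A class of 106 codons held 8.73% and 8.32%. M4 lacks Hmga1-216, its Hmga1-201 held 29.3% in the mean, and the classes were not compared with M4. The transcripts share nearly all their exons, and the posterior SD of Hmga1-216 was 247.0 reads of 3471 in replicate 1. Hmga2 was almost wholly Hmga2-201 (108 codons), at 98.7% and 99.3%.

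**Figure D3:**
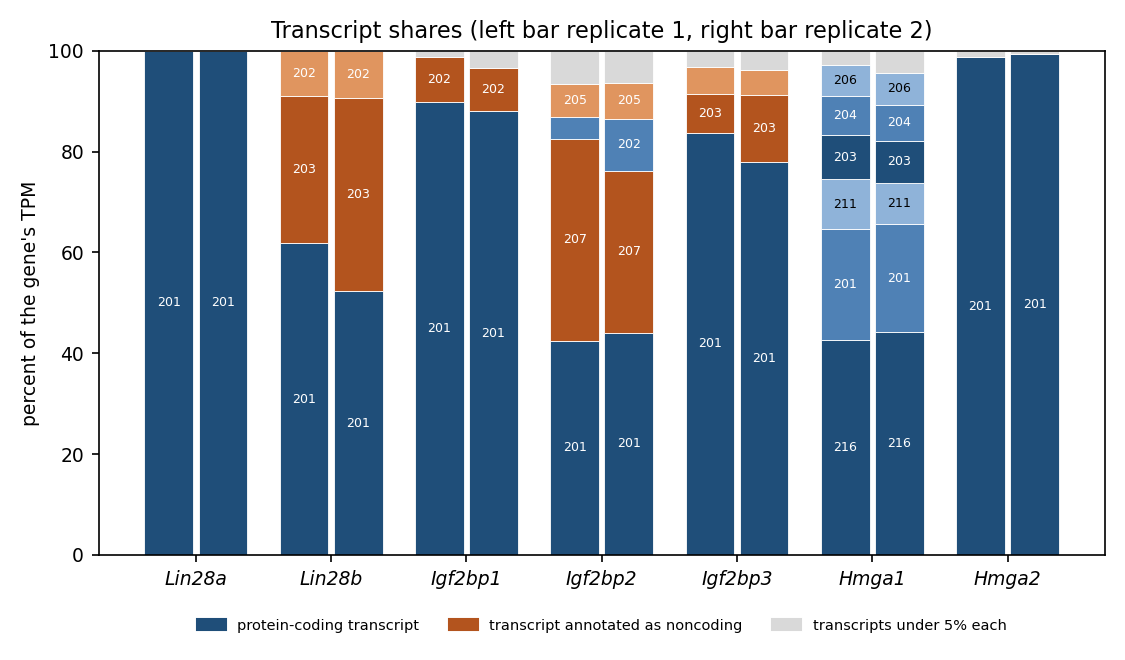
Percent of each gene's TPM in its transcripts, the left bar for replicate 1 and the right for replicate 2, numbered as in the annotation; blue is coding, orange noncoding, and grey the transcripts under 5% each. Igf2bp2 and Lin28b hold large orange parts (Igf2bp2-207, Lin28b-203), while Hmga2, Igf2bp1 and Igf2bp3 are mostly 1 coding transcript and Hmga1 is shared by several.

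Most of the genes' RNA was assigned to annotated transcripts that hold the let-7 match. All complete coding transcripts of Lin28a, Lin28b, Igf2bp1, Igf2bp3 and Hmga2 hold it. The shares of these genes are thus their coding shares, set by the annotation, and the use of shorter 3' ends was not measured. Transcripts with CTACCTC anywhere in their sequence made up 99.6% of Hmga2 TPM in the mean, 91.6% of Hmga1, 89.0% of Igf2bp1, 88.8% of Igf2bp2 and 80.8% of Igf2bp3. The Igf2bp2 share includes noncoding entries such as Igf2bp2-207, which have no annotated 3' UTR. Its coding transcripts, which hold the match in the 3' UTR, made up 50.6%. For Lin28b the share was 57.1%, the share of Lin28b-201. For Lin28a it was 100%, from the reads given above. Among Hmga1 transcripts, Hmga1-206, with a 3' UTR of 534 nt and 6.27% of the gene, was the most abundant one without the match.

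Between the 2 pools, none of the 6 genes tested was called different at an adjusted p under 0.05 and a 2-fold change, where 163 of 15926 genes were (1.02%). The exact two-sided binomial test on reads was adjusted by Benjamini-Hochberg over all genes at a mean of 1 TPM, and it compares 2 libraries, counting error only. Lin28a was below that level and was not tested. By adjusted p alone, 4 of the 6 passed, where 19% of all tested genes did, and this test passes smaller differences the more reads a gene has. Igf2bp1 had 12722 and 14323 reads, a log2(TPM + 1) difference of 0.18, replicate 2 minus replicate 1, with an adjusted exact p of 1.3e-15. Lin28b differed by 0.44 with an adjusted exact p of 2.1e-04. Its reads, on which the test was made, were 622 and 798. That is 1.26-fold after scaling by library size, against 1.41-fold in TPM. Igf2bp2 differed by -0.10 with an adjusted exact p of 3.0e-04 and Hmga2 by 0.07 with 0.0494. The Hmga2 value ranged from 0.0108 with DESeq2 size factors to 0.156 without the minimum of 1 TPM, and was 0.0599 with library sizes taken as total counts. The coding transcripts of Igf2bp2 lay the other way, higher in replicate 2. Igf2bp3 (0.13, adjusted exact p = 0.171) and Hmga1 (-0.01, adjusted exact p = 0.555) did not pass. Set against genes of like level, none of the 6 differed by more than the spread defined above, which was 0.52 for Lin28b against its TPM ratio of 0.49.

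**Figure D4:**
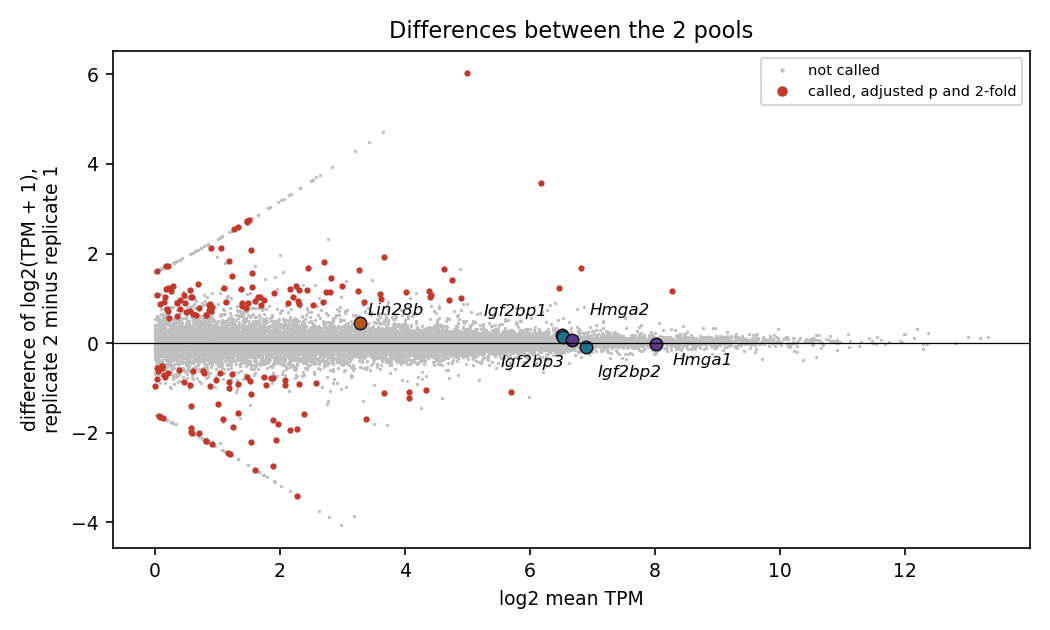
Each dot is 1 of 15926 genes, with its log2 mean TPM across and its log2(TPM + 1) difference, replicate 2 minus replicate 1, upward; red dots were called. The 6 tested Lin28, Igf2bp and Hmga genes lie between -0.10 and 0.44, inside the grey cloud.

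Markers of other tissues were read beside the Lin28b difference, and none of them was called between the pools by both criteria. Of 8 neuron and neural tube markers, 4 reached 1 TPM in both libraries. The summed level of the 8 was 23.6 TPM in replicate 1 and 31.1 TPM in replicate 2. All 4 tested passed by adjusted p alone, where 19% of all tested genes did. Tubb3, the neuronal tubulin, had 7.13 and 11.51 TPM and Stmn2, a growth cone protein, 5.66 and 8.79 TPM, and Elavl4 2.29 and 3.22 TPM, all higher in the pool with more Lin28b. Neurod1 (0 and 14 reads) and Elavl3 (1 and 17 reads) were also higher there. Dcx (8.14 and 7.11 TPM) and Pax6 (12 and 2 reads) were lower in that pool, and the progenitor factor Sox1 had no reads. The part of these markers in the Lin28b difference was not tested. Beside Lin28a, 1 of 12 markers of pluripotent and germ cells reached 1 TPM in both libraries, namely Nanos3 with 4.33 and 2.62 TPM. Their sum was 5.65 and 5.36 TPM, the stem cell factors Pou5f1 and Nanog had mean levels of 0.225 and 0.135 TPM, and Dppa4 had no reads. The labelled tissue had its markers: 10 of 10 limb mesenchyme genes reached 1 TPM, led by Msx1 (mean 374.7 TPM), Prrx1 (157.1 TPM) and Prrx2 (155.8 TPM), with Lmx1b lowest at 7.28 TPM. By adjusted p alone 5 of the 10 differed between the pools, in both directions: Tbx5, a forelimb factor, had 39.96 and 28.38 TPM, and the hindlimb factors Pitx1 and Tbx4 had 135.56 and 163.98 TPM and 30.60 and 35.10 TPM. Their part in the differences of the Lin28, Igf2bp and Hmga genes was not tested. All 8 red blood cell markers reached 1 TPM, with Hbb-y at 7123 and 7126 TPM, Hba-a1 and Hba-x next and Gata1 lowest at 1.68 TPM. Of 7 liver markers 2 did, with Afp at 3.97 and 2.35 TPM, Apoa1 and Alb lower still and Fgb at 0.035 TPM.

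Genes of let-7 processing and decay were present: all 20 listed reached 1 TPM in each pool. Whether LIN28 acts through them here was not tested. Their median was 45.3 TPM, and that of all protein-coding genes at 1 TPM was 22.4 TPM. Hnrnpa1, an RNA-binding protein that also binds pri-let-7a, was highest at 1112 TPM. Tut4, a uridyltransferase of pre-let-7, followed with 112.19 TPM in replicate 1 and 122.97 TPM in replicate 2. Tarbp2, the Dicer partner, came next at 86.8 TPM. Ago4 was the lowest at 2.23 TPM. None of the 20 was called between the pools, where 1.02% of all tested genes were, so this count says nothing particular of the list. Their median log2 difference was 0.07, against 0.01 over all tested genes.

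Mature let-7 carries no polyA tail and was not measured. The 12 let-7 hairpin entries looked up, such as Mirlet7e, had 0 reads. Of them, 10 had an effective length of 0, so no limit can be given. Genes that span the hairpins on the same strand were seen instead. 3110039I08Rik, which spans let-7a-2, had 127.98 TPM in replicate 1 and 119.13 TPM in replicate 2. Huwe1, a ubiquitin ligase that spans let-7f-2 and miR-98, had 57.15 and 50.90 TPM. Spaca6, over let-7e, had a mean of 49.5 TPM, Mir99ahg, over let-7c-1, 44.1 TPM and Wdr82, over let-7g, 24.2 TPM. The transcript over let-7a-1, let-7d and let-7f-1, 6720427I07Rik, was lower at 2.18 TPM, and Lncppara, over let-7b and let-7c-2, had 4 and 2 reads. Of 17 listed hairpins and host genes, 15 were found and 3 reached 1 TPM in each pool (Huwe1, Mir99ahg and Wdr82). The level of a spanning gene is not that of the microRNA. The overlaps were looked up after the data were seen.

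Other genes known as let-7 targets were widely expressed. Of 35, 31 reached 1 TPM in both libraries, and their median was 44.9 TPM. The cell cycle gene Ccnd2 was highest at 999.0 TPM, followed by the collagen gene Col1a2 at 362.6 TPM and the cyclin gene Ccnd1 at 135.5 TPM, while Acvr1c had 0.08 TPM. CTACCTC stood in the 3' UTR of 24 of the 35, or 68.6%, against 8.98% of all genes. The list was drawn from known targets, so this share is partly set by the choice. None of the 31 tested was called between the pools, near the 1.02% of all tested genes, and 17 passed by adjusted p alone, where 19% of all tested genes did. The median log2 difference was 0.01.

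The proteins and RNAs that work with the IGF2BP proteins were mostly present. All 12 partners in RNA granules reached 1 TPM in each pool (median 212.8 TPM), led by Ybx1 (825.97 and 822.60 TPM), Hnrnpu (687.2 TPM) and Matr3 (547.4 TPM), and Elavl2 was lowest at 3.33 TPM. IGF2BP proteins are also known as readers of N6-methyladenosine, a mark on mRNA. All 15 genes of its writers, erasers and YTH readers reached 1 TPM, with a median of 33.3 TPM. The reader Ythdf2 had a mean of 115.1 TPM, the writer subunit Wtap 102.42 and 121.61 TPM, the eraser Fto 74.3 TPM and Ythdc2, the lowest, 8.13 TPM. Of 14 RNAs known to be bound by IGF2BP proteins, 12 reached 1 TPM. Actb was highest at 10302 TPM, and Igf2, the growth factor whose mRNA gave the family its name, had 732.59 and 649.68 TPM. Ctnnb1 had 579.0 TPM and Ptgs2, the lowest, 0.065 TPM. Mapt, which codes for the neuronal protein tau, was the single gene called of the 142 tested over all 14 lists (0.704%, against 1.02% of all tested genes), with 1.18 TPM in replicate 1 and 2.36 TPM in replicate 2 (adjusted exact p = 1.8e-05).

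**Figure D5:**
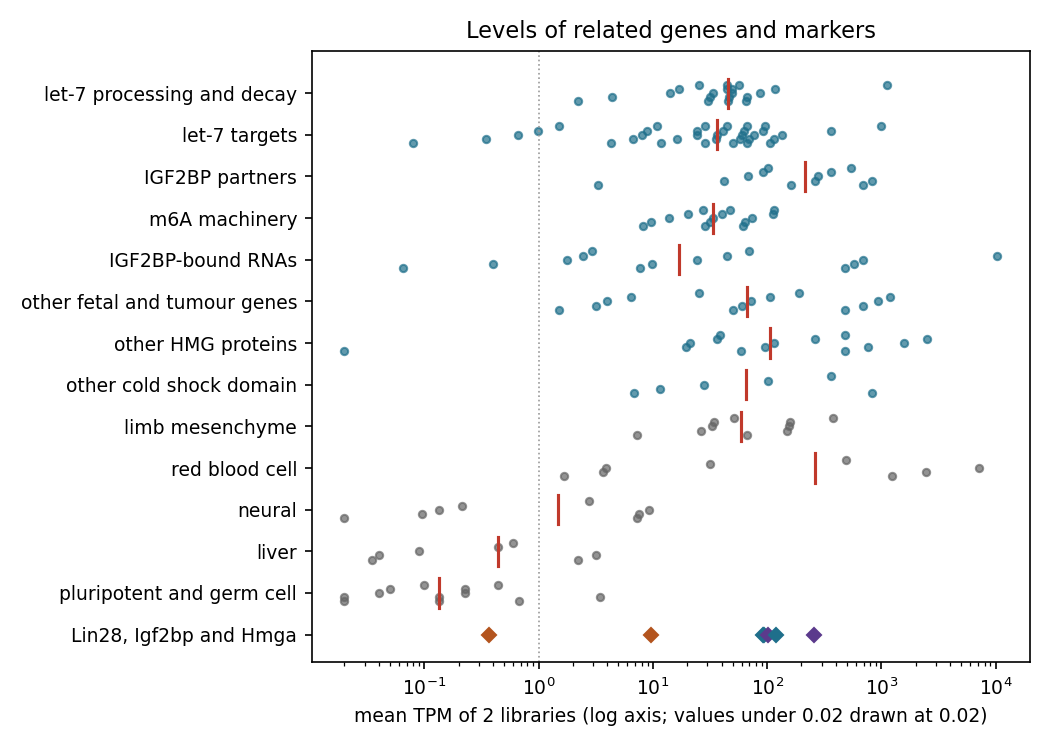
Mean TPM of each listed gene on a log axis, 1 row per list, with the list's median as a red bar, the dotted line at 1 TPM and the 7 Lin28, Igf2bp and Hmga genes as diamonds in the bottom row. Markers of liver and of pluripotent and germ cells lie mostly left of the line, and the let-7, IGF2BP, m6A and HMG lists mostly right of it.

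Chromatin and RNA-binding relatives put the levels in scale. Among 14 other high mobility group proteins, 13 reached 1 TPM in each pool, and their median was 115.6 TPM. Hmgn2 (2506 TPM), Hmgb1 (1564 TPM) and Hmgn1 (762.1 TPM) were far above Hmga1 and Hmga2, and the testis gene Hmgb4 had no reads. All 6 other genes with a cold shock domain, the RNA-binding fold that LIN28 shares, reached 1 TPM. They included Ybx1 and Carhsp1 (102.9 TPM) and reached down to Csdc2 at 6.89 TPM, so the lowest of them was near Lin28b. None of these high mobility group or cold shock genes held CTACCTC in the longest 3' UTR. Other genes of fetal tissue and tumours all reached 1 TPM, 14 of 14, led by the imprinted gene Mest (1272.93 and 1126.35 TPM), the glypican gene Gpc3 (934.7 TPM) and Igf2. Trim71, a partner of LIN28 in the same circuit with 4 matches of its own, was the lowest with 1.24 and 1.81 TPM. By adjusted p alone 10 of these 14 genes differed between the pools, in both directions, where 19% of all tested genes did. Their median log2 difference was -0.09, against 0.01 over all tested genes, and none was called by both criteria.

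Reads of near copies and overlapping genes set a limit on some of these values. Hmga1b, a separate gene at chr11:120762794-120764419, matches the Hmga1 transcript at 99.8% over 1602 nt and was given 151.0 and 204.0 reads, with a posterior SD of 25.8 and 28.5 reads. Hmga1 itself had 7883 and 7870 reads. Malsu1, on the opposite strand, shares 1529 nt with the Igf2bp3 3' end and had 54.31 and 64.54 TPM. Both genes had the same posterior SD, 21.1 reads in replicate 1 and 20.1 in replicate 2, so the quantification divided reads between them. Igf2bp3 had 6570 and 6897 reads. The use of strand was not given in the sources used here, and the division was not checked. The other overlapping genes were lower. AI413582, opposite Hmga1, had a mean of 12.5 TPM, the antisense genes 1700006J14Rik and 9230105E05Rik at Hmga2 had 2.39 and 0.61 TPM, and Gm29202 at Igf2bp1 had 2.73 TPM. Gm49774 at Hmga1, Gm13061 at Lin28a, Gm18010 at Igf2bp3 and Mir3063 at Igf2bp1 had at most 0.185 TPM, and Mir763, inside Hmga2, had 5 and 8 reads. Parts of Cox16, Gm20498 and the pseudogene Gm38158 align to Hmga2 over 320, 488 and 339 nt at 92.4% identity or more, and the posterior SD of Hmga2 was 0.33 and 0.32 reads.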

How the data were processed

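PolyA RNA from 2 pools of embryonic limbs was quantified. The deposited tables give the authors' expected counts for genes and for transcripts, under RSEM's column names. TPM was computed by the authors from these counts and effective lengths, and levels are given in that unit. FPKM was deposited by the authors too and served only as an alternative. The percent of each gene in each transcript was deposited by the authors and was recomputed here from TPM. Per the labels the build is mm10, and the deposited notes name GENCODE M21 and M4. M21 was used, and M4 as an alternative. Neither the aligner nor program versions nor strandedness is given in the sources used here.

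The 7 genes and the 14 lists were chosen with earlier results of these data known, and the lists with textbook knowledge. Of 183 distinct listed symbols, 181 were found. All 7 genes, their near copies and overlapping genes, transcripts at 10% of their gene, and in each list the 3 most abundant, the lowest and any called gene are named. One gene that this rule names is not reported here. Names beyond this were chosen after their values were seen: Pou5f1, Nanog, Elavl4, Neurod1, Elavl3, Pax6, Tbx5, Pitx1, Tbx4, Hic2, Nr6a1, Mcf2l, 3110039I08Rik, Spaca6, 6720427I07Rik, Lncppara, Igf2bp2-202 and Hmga1-206.

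Expected counts were rounded, scaled with edgeR 4.0.16 TMM library sizes and compared by an exact two-sided binomial test with Benjamini-Hochberg adjustment over genes at a mean of 1 TPM, which was tested on simulated data. DESeq2 1.42.0 size factors were an alternative. Differences were printed as log2(TPM + 1), which understates low genes. The p-values measure only the spread between libraries that counting gives. A read on a transcript of 2000 nt is worth 0.0266 TPM in replicate 1 and 0.0264 TPM in replicate 2. Letters were searched in GENCODE M21 transcripts (mm10) and RefSeq microRNAs (GRCm38.p6), and near copies with BLAST 2.17.0 at 200 nt and 90% identity. The planned comparison of protein sequences was not run.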

Additional observations from a re-analysis of the deposited data

How the results depend on the processing

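No paired analysis was possible because the series holds 1 group, so the replicate numbers pair no samples. The count of 6 genes at 1 TPM held with minima of 0.5 and 5 TPM, with M4 and in either library alone, and the count of 7 genes with a let-7 match held with the 6-letter match and was 6 with the 8-letter one (TACCTC and CTACCTCA). Counts not divided by length turned Igf2bp1 to Igf2bp3 to a mean log2 ratio of 1.00 and Igf2bp1 to Igf2bp2 to 0.85, and brought Igf2bp2 to Igf2bp3 (0.15) and Hmga2 to Hmga1 (-0.10) within the spread. Protein-coding transcripts alone turned Igf2bp1 to Igf2bp2 to 0.44 and Igf2bp2 to Igf2bp3 to -0.33. Except with M4, the spread was kept from the main gene levels. Apart from counts not divided by length, no alternative took Igf2bp1 to Igf2bp3 beyond the spread in both libraries. The values ran from -0.05 in replicate 1 alone to a mean of 0.18 with M4. With M4, replicate 2 alone went past the spread of 0.22, with 102.35 TPM for Igf2bp1 and 85.89 TPM for Igf2bp3. The remaining pairs kept their direction and their side of the spread in the M4, FPKM, pseudocount and single-library values. Between libraries, 96 genes were called higher in replicate 2 and 67 in replicate 1. These counts became 147 and 112 without a minimum, 28 and 8 at a mean of 5 TPM, 231 and 185 at 1.5-fold, and 1406 and 1616 by adjusted p alone, where 4 of the 6 tested genes passed. None of the 6 was called in any other alternative. Lin28b to Lin28a fell from 4.70 to 3.96 with M4 and to 3.89 with protein-coding transcripts alone. The level of Lin28a rests on 22 and 28 reads, and 3 reads of it correspond to 0.045 and 0.0439 TPM.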
